A study of Homo sapiens with 6 samples.

Results

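The ERBB receptor family and its EGF-type ligands were followed in HCT116 cells, a single human colorectal carcinoma cell line. The genes were chosen by name: 3 receptors (EGFR, ERBB2 and ERBB3), 5 ligands (AREG, EREG, TGFA, HBEGF and BTC) and the feedback inhibitor ERRFI1. All 9 were found among the 58735 genes listed, and all 9 were among the 12349 genes with a mean of at least 1 FPKM, the level set for testing. FPKM is the number of sequenced fragments of a gene scaled to the length of the gene and to the total of the library. The length is that deposited for each gene, from 1648 bases for AREG to 12521 bases for EGFR among the 9. Which transcripts these cells use was not measured, so levels, shares and ratios between genes are approximate. The CTR group held 3 libraries of HCT116 cells labelled as control, with the genotype WT. The study describes its control cells as transfected with a control, whose sequence and dose are not given in the sources used here. The miR-8485 group held 3 libraries of the same cells transfected with 50 nM of miR-8485 mimics, short synthetic RNAs that act as the mature miRNA. Cells were collected 48 h after transfection unless another time was stated. The comparison asked which of these genes differed between the 2 groups.

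ERBB receptors are tyrosine kinases that pair at the cell surface and pass growth signals to the RAS–ERK and PI3K–AKT pathways. EGFR binds all of the ligands studied here, ERBB2 has no known ligand of its own and serves as a partner, and ERBB3 binds neuregulins and signals mainly through its partners. The ligands are made as membrane-anchored precursors that ADAM proteases release, and ERRFI1, also called MIG6, binds the EGFR kinase and restrains it. In colorectal cancer, AREG and EREG are known as ligand markers of the response to antibodies against EGFR.

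The 6 libraries held 17473874 to 18480047 fragments on listed genes. In each library, 100% of the values above 0 came out as whole fragments within 0.01 of a fragment. The 9 genes had between 48 fragments (BTC, CTR replicate 2) and 20321 fragments (ERRFI1, CTR replicate 3) in a library. The epithelial markers EPCAM and CDH1 were expressed in all libraries, at 127 to 148 and 18.7 to 20.4 FPKM, while VIL1 was near 0. The summed level of the 8 epithelial markers was 2614 to 2839 FPKM in CTR and 1753 to 1840 FPKM in miR-8485, mostly from KRT8, KRT18 and KRT19. From the same list, CDX2 rose from a mean of 16.0 to 28.2 FPKM and KRT20 from 0.730 to 2.02 FPKM. That of 8 leukocyte, endothelial and fibroblast markers was 4.32 to 4.67 and 6.54 to 6.57 FPKM, nearly all of it COL1A1, and CD3E and DCN were at 0 in every library. The part of these markers in the results below was not tested. In bulk RNA, fewer expressing cells and less RNA per cell cannot be told apart.

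Of the 9 genes, 6 fell and 3 rose in the miR-8485 libraries, and none missed the threshold. EGFR, AREG, EREG, TGFA, HBEGF and ERRFI1 were lower, and ERBB2, ERBB3 and BTC were higher. The call of ERBB2 was lost under 5 of its alternatives. The mean level of AREG fell by 25.1%, the smallest fall of the 6, and that of ERRFI1 fell by 61.8%, the largest. With the length trend removed, the smallest fall was that of EREG, with a log2 fold change of -0.55 against -0.59 for AREG. The threshold was an adjusted p under 0.05 in limma, a linear model of log2(FPKM + 0.1) fitted to all tested genes with Benjamini-Hochberg adjustment. Calls were common in the transcriptome as a whole. Of all 12349 tested genes, 59.6% were called, 30.5% as lower and 29.1% as higher, and in 66.5% the values of the 2 groups of libraries did not overlap. The groups did not overlap for any of the 9 ERBB genes. Their median log2 fold change was -0.59, against -0.0041 over all tested genes. Of all called genes, 48.8% were higher with FPKM as deposited, and 35.6% after rescaling to TPM, where the median over all tested genes was -0.12.

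**Figure D1:**
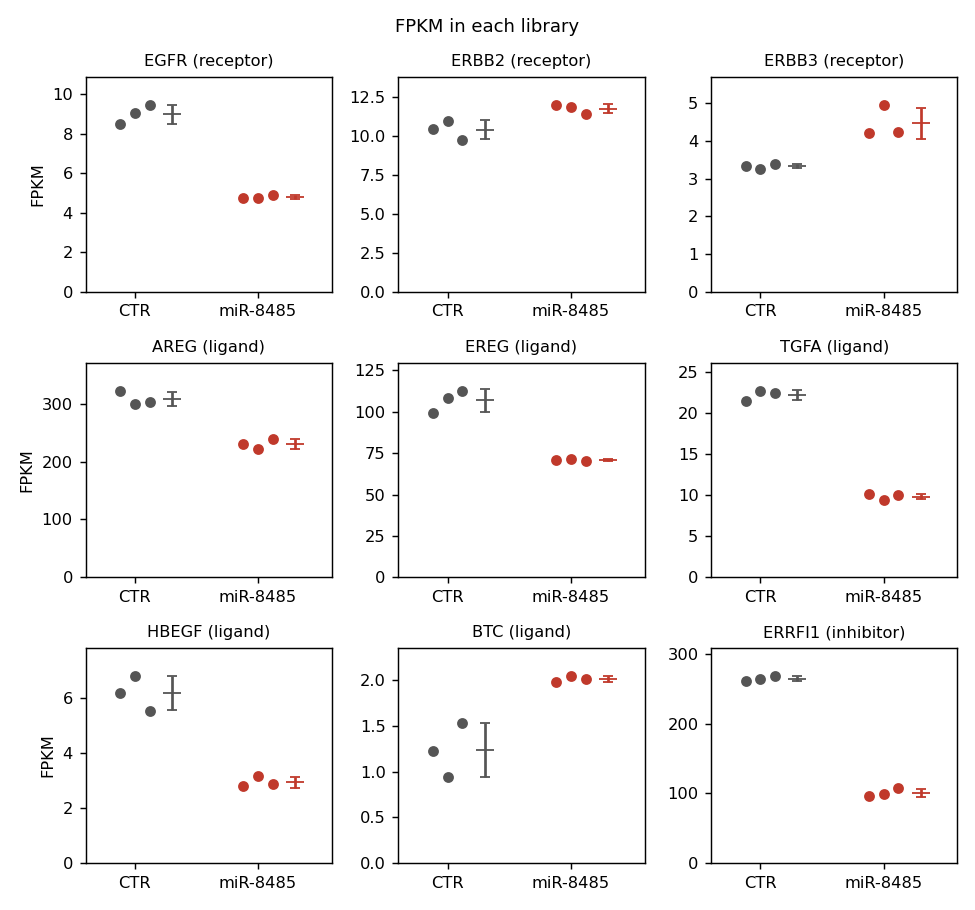
FPKM of each of the 9 genes in the 3 CTR libraries (gray points) and the 3 miR-8485 libraries (red points), with the mean and SD of each group as a bar beside them and every axis starting at 0. The groups do not overlap in any panel, with ERRFI1 at 261 to 268 FPKM in CTR and 96.1 to 108 FPKM in miR-8485, and with BTC, ERBB2 and ERBB3 higher in miR-8485.

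In CTR, the order of the levels was AREG, ERRFI1, EREG, TGFA, ERBB2, EGFR, HBEGF, ERBB3 and BTC, and no neighbors in this order overlapped between libraries. AREG ranked 97 and ERRFI1 119 in CTR mean among the 12349 tested genes, whereas BTC ranked 11533. In miR-8485, ERBB2 stood above TGFA, and ERBB3 stood above HBEGF. EGFR and ERBB3 overlapped there, at 4.72 to 4.89 and 4.23 to 4.95 FPKM.

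EGFR, the receptor shared by the ligands, lies on chromosome 7 between 55019021 and 55211628 (hg38, plus strand). It measured 8.49, 9.03 and 9.45 FPKM in CTR replicates 1 to 3 and 4.72, 4.73 and 4.89 FPKM in miR-8485 replicates 1 to 3. Every miR-8485 library was thus below every CTR library, and the miR-8485 libraries lay closely together. Mean levels were 8.99 ± 0.482 FPKM in CTR and 4.78 ± 0.0934 FPKM in miR-8485 (SD, n = 3 each), and limma gave a log2 difference of -0.90 ± 0.06 (standard error) with an adjusted p of 1.9e-05. A fall at least as large was seen in 6.15% of all tested genes. EGFR-AS1, an antisense gene within EGFR, was near 0 in both groups, at means of 0.0855 FPKM in CTR and 0.00661 FPKM in miR-8485. Both lie far below the level set for testing, so no change is read from them.

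ERBB2, the preferred partner of the other receptors, lies on chromosome 17 between 39687914 and 39730426 (plus strand). Its libraries measured 10.4, 10.9 and 9.72 FPKM in CTR and 11.9, 11.8 and 11.4 FPKM in miR-8485. The 3 miR-8485 libraries were the higher ones, but the gap between the groups was small. The log2 fold change was 0.18 with a 95% interval of 0.04 to 0.31 (adjusted p = 0.0307 in limma). The limma call was lost when CTR replicate 3 was left out (0.13, adjusted p = 0.0927), without miR-8485 replicate 1 (0.16, adjusted p = 0.0862), without miR-8485 replicate 2 (0.17, adjusted p = 0.0826), with no filter on low genes (adjusted p = 0.0616) and after rescaling to TPM (0.0633, adjusted p = 0.406). With the length trend removed, the value was 0.30. MIEN1, on the opposite strand from 39728496 to 39730787, overlaps the end of ERBB2 and measured 12.8 FPKM in CTR and 16.2 FPKM in miR-8485. PGAP3, on the opposite strand from 39671122 to 39696797, overlaps the start of ERBB2 and measured 2.52 and 2.47 FPKM. Whether fragments were counted by strand is not given in the sources used here. The part of MIEN1 and PGAP3 in the ERBB2 value was not tested.

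ERBB3, the neuregulin receptor with a weak kinase, lies on chromosome 12 between 56076799 and 56103505 (plus strand). It measured 3.35, 3.27 and 3.39 FPKM in CTR and 4.23, 4.95 and 4.23 FPKM in miR-8485. The miR-8485 libraries were all higher, with replicate 2 above the other two. Mean levels were 3.34 ± 0.0612 FPKM in CTR and 4.47 ± 0.420 FPKM in miR-8485 (SD, n = 3 each), and limma gave a log2 difference of 0.41 ± 0.08 (standard error) with an adjusted p of 0.0035.

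The 3 receptors together summed to 22.3 to 23.2 FPKM in CTR and to 20.5 to 21.5 FPKM in miR-8485. EGFR made up 38.1% to 41.9% of this sum in CTR and 22.0% to 23.8% in miR-8485. The share of ERBB2 was 43.1% to 47.1% and 54.98% to 57.2%, and that of ERBB3 was 14.1% to 15.0% and 20.2% to 23.0%. The ratio of ERBB3 to EGFR was 0.359 to 0.395 in CTR and 0.865 to 1.05 in miR-8485. These shares describe mRNA, scaled by the deposited gene lengths, and not receptor protein.

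**Figure D2:**
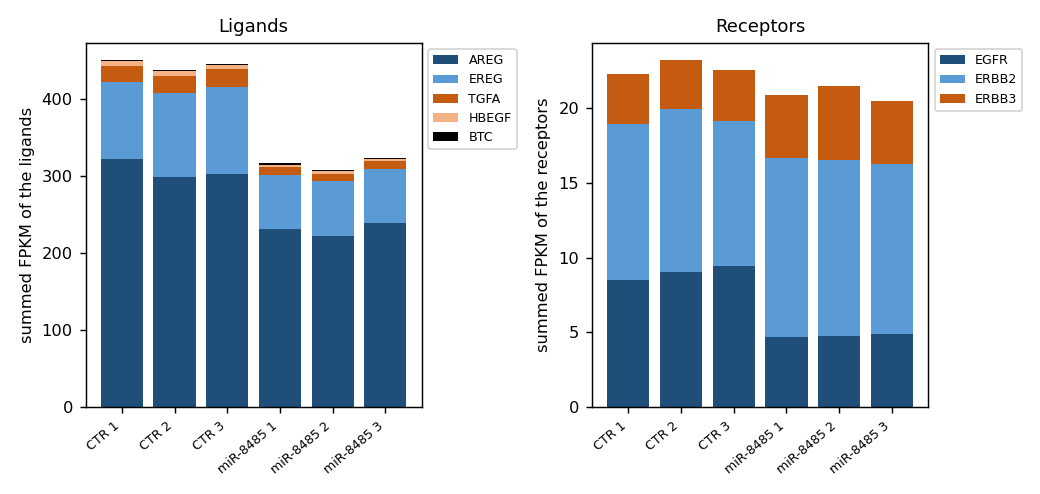
Summed FPKM of the 5 ligands (left) and of the 3 receptors (right) in each of the 6 libraries, both axes from 0, with each gene as a part of the bar. The ligand sum is 438 to 451 FPKM in CTR and 308 to 324 FPKM in miR-8485, with AREG the largest part in every library, and the EGFR part of the receptor bar is smaller in the miR-8485 libraries.

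AREG, which encodes amphiregulin, was the most abundant ligand. The gene lies on chromosome 4 between 74445134 and 74455009 (plus strand). It measured 322, 299 and 303 FPKM in CTR and 231, 222 and 239 FPKM in miR-8485. The highest miR-8485 library was well below the lowest CTR library. Mean levels were 308 ± 12.6 FPKM in CTR and 231 ± 8.37 FPKM in miR-8485 (SD, n = 3 each), and limma gave a log2 difference of -0.42 ± 0.05 (standard error) with an adjusted p of 2.6e-04.

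EREG, which encodes epiregulin, lies 56383 bases upstream of AREG on the same strand, from 74365143 to 74388751. It measured 99.2, 109 and 113 FPKM in CTR and 70.6, 71.4 and 70.2 FPKM in miR-8485. The CTR libraries were spread more widely than the miR-8485 libraries, and the groups did not overlap. In limma the log2 difference was -0.59 ± 0.05 (standard error) at an adjusted p of 7.6e-05. The ratio of AREG to EREG overlapped between the groups, at 2.69 to 3.25 in CTR and 3.11 to 3.40 in miR-8485.

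AREG, EREG and BTC belong to a cluster of EGF ligand genes on chromosome 4 that also holds EPGN. Of the 6 genes listed from EPGN to BTC, 4 had a mean of at least 1 FPKM, namely EREG, AREG, BTC and the antisense gene AC239584.1 at 2.01 FPKM. Because AREG and EREG are neighbors on 1 strand and both fell, the reference sequence around their starts is shown, from 250 bases before to 50 bases after the start annotated by RefSeq in GRCh38.p14. The sequences come from the plus strand, at chr4:74444886-74445185 for AREG and chr4:74364895-74365194 for EREG, and capitals mark every match to TATAAA (the TATA box), TGACGTCA (the cyclic AMP response element), TGANTCA (the AP-1 site) and GGGCGG (an SP1 site) on either strand.
AREG: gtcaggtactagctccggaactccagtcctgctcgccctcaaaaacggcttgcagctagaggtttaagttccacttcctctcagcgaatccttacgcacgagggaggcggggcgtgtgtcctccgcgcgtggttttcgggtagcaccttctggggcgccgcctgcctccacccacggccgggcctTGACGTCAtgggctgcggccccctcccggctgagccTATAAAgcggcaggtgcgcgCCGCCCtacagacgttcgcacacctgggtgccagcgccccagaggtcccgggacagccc
EREG: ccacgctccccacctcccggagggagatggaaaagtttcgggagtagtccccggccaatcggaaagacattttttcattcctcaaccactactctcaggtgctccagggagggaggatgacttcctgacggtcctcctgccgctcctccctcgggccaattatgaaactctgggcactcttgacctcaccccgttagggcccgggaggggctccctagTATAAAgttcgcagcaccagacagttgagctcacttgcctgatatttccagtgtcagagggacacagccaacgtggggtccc
Both windows hold TATAAA, which begins 29 bases before the start of AREG and 32 bases before that of EREG, and which occurs in 11.5% of the 35116 RefSeq promoter windows. TGACGTCA occurs in the AREG window, where it begins 65 bases before the start, and in 1.85% of all windows, but not in the EREG window. The AREG window also holds a single GGGCGG, a motif found in 45.0% of all windows, and neither holds TGANTCA, which occurs in 7.71%. Promoter windows were listed for 8 of the 9 genes, not for ERBB3. Among the other members, GGGCGG occurred in windows of EGFR, TGFA, HBEGF, BTC and ERRFI1, and TGANTCA in that of ERBB2. A second window of EGFR held TATAAA at 2 places, beginning 146 and 36 bases before the start, and TGANTCA at 2 places. These matches are of letters only, and binding was not measured.

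TGFA, which encodes transforming growth factor alpha, lies on chromosome 2 between 70447280 and 70554193 (minus strand). It measured 21.5, 22.8 and 22.5 FPKM in CTR and 10.1, 9.46 and 9.997 FPKM in miR-8485. The libraries of each group lay within a narrow range, and the groups were far apart. Mean levels were 22.2 ± 0.654 FPKM in CTR and 9.85 ± 0.348 FPKM in miR-8485 (SD, n = 3 each), and limma gave a log2 difference of -1.17 ± 0.05 (standard error) with an adjusted p of 3.6e-06. A fall of this size or more was found in 3.42% of all tested genes.

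HBEGF, which encodes the heparin-binding ligand that also serves as the diphtheria toxin receptor, lies on chromosome 5 between 140332843 and 140346631 (minus strand). It measured 6.19, 6.80 and 5.55 FPKM in CTR and 2.79, 3.15 and 2.87 FPKM in miR-8485. All miR-8485 libraries were lower, on 151 to 172 fragments each against 303 to 371 in CTR. In limma the log2 difference was -1.05 ± 0.09 (standard error) at an adjusted p of 6.3e-05.

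BTC, which encodes betacellulin, was the only ligand that rose and the lowest of the 9 genes. It lies on chromosome 4 between 74744759 and 74794686 (minus strand). It measured 1.22, 0.942 and 1.53 FPKM in CTR and 1.98, 2.04 and 2.01 FPKM in miR-8485. These values rest on 62, 48 and 78 fragments in CTR and 100, 104 and 108 in miR-8485. The miR-8485 libraries were all higher and close together, whereas the CTR libraries were spread widely. The log2 fold change of 0.69 had a standard error of 0.18, the largest among the 9 genes, and an adjusted p of 0.0116 in limma. With a pseudocount of 1, which weighs on low genes, it was 0.44.

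The 5 ligands summed to 438 to 451 FPKM in CTR and to 308 to 324 FPKM in miR-8485. AREG held 68.1% to 71.6% of the sum in CTR and 72.1% to 73.7% in miR-8485. The share of TGFA was 4.77% to 5.20% in CTR and 3.07% to 3.19% in miR-8485, and that of HBEGF was 1.25% to 1.55% and 0.880% to 1.02%. BTC stayed under 1% in every library, with 0.215% to 0.344% in CTR and 0.622% to 0.663% in miR-8485. The share of EREG overlapped, at 22.0% to 25.3% and 21.7% to 23.2%.

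ERRFI1, the feedback inhibitor that growth factor signaling is known to induce, had the largest fold change of the 9 genes. It lies on chromosome 1 between 8004404 and 8026308 (minus strand). It measured 261, 264 and 268 FPKM in CTR and 96.1, 99.1 and 108 FPKM in miR-8485. The CTR libraries differed little from each other, and the miR-8485 libraries were all far below them. Mean levels were 264 ± 3.65 FPKM in CTR and 101 ± 5.96 FPKM in miR-8485 (SD, n = 3 each), and limma gave a log2 difference of -1.39 ± 0.05 (standard error) with an adjusted p of 2.3e-06. A fall at least as large was found in 247 tested genes. ERRFI1 fell more than its target receptor, and the ratio of ERRFI1 to EGFR was 28.4 to 30.7 in CTR and 20.4 to 22.0 in miR-8485. The antisense gene AL034417.4, which overlaps ERRFI1, was at 0.923 FPKM in CTR and 0.398 FPKM in miR-8485, both below the level set for testing.

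Across the 6 libraries, the genes outside the family whose pattern was most like that of ERRFI1 were IFFO2, AKAP12 and CTSD, with Pearson r of 0.9998, 0.9996 and 0.9995 on the log2 scale. Since the 6 libraries are 2 groups of 3, r mostly follows the difference between the groups, and 5.10% of the 12340 genes compared had r above 0.99. Their log2 fold changes were -2.21 for IFFO2, -1.29 for AKAP12 and -3.20 for CTSD.

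**Figure D3:**
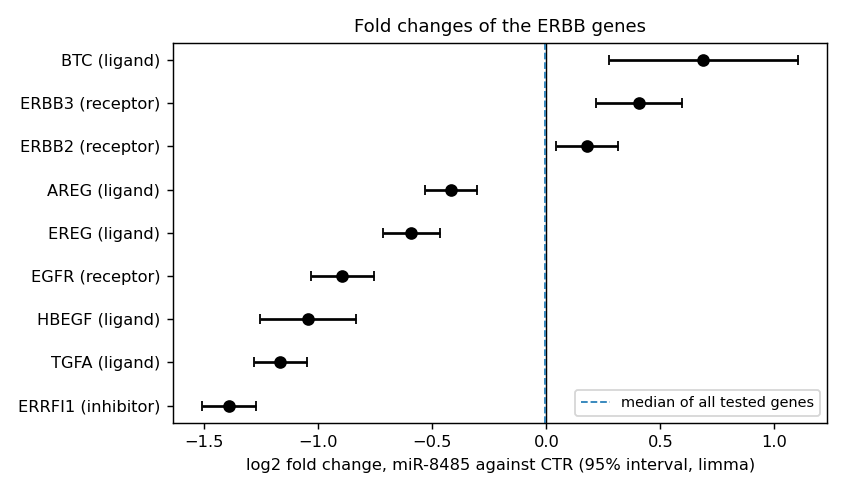
Log2 fold change of each gene in miR-8485 against CTR (points) with its 95% interval from limma (bars), ordered by size, with a dashed line at the median of all tested genes. ERRFI1 stands lowest at -1.39, the intervals of ERBB2, ERBB3 and BTC lie above 0, and those of the other genes lie below 0.

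A miRNA recognizes mRNAs mainly through its seed, bases 2 to 8, and the 7 bases TGTGTGT pair with the seed of the mimic. In the longest 3′ UTR per gene of GENCODE release 44 (GRCh38), this match occurred in EGFR, TGFA and ERRFI1. It was not present in the 3′ UTRs of ERBB2, ERBB3, AREG, EREG, HBEGF and BTC. The 3 members with a match fell, as did AREG, EREG and HBEGF without one. Their matches are shown with TGTGTGT in capitals, written 5′ to 3′ on the strand of the gene. The EGFR window in the 3′ UTR spans chr7:55207051-55207073 on the plus strand, and the TGFA window chr2:70449893-70449917 on the minus strand. The ERRFI1 window, in the canonical transcript, spans chr1:8012276-8012298 on the minus strand.
EGFR: tcctaatcTGTGTGTgccctgta
TGFA: aggaagagTGTGTGTGTctacacag
ERRFI1: tttggggaTGTGTGTtgtggttt
The EGFR 3′ UTR has 6011 bases and 1 copy, and that of TGFA has 3575 bases and 2 overlapping copies. For ERRFI1, the 3′ UTR of the canonical transcript has 1483 bases and 1 copy, and the longest, that of another transcript with 1843 bases, also has 1 copy at a different place. EREG has a 3′ UTR of 3941 bases with 0 copies and AREG a short one of 265 bases.

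Of the 10674 tested genes with an annotated 3′ UTR, 30.2% held at least 1 copy. The median log2 fold change was 0.02 for genes with 0 copies, -0.09 with 1, -0.14 with 2 and -0.27 with 3 or more. Genes with more copies also had longer 3′ UTRs, with a median of 1033 bases at 0 copies and 3697 at 3 or more. EGFR at -0.90, ERRFI1 at -1.39 and TGFA at -1.17 lay below the medians of their copy numbers. HBEGF fell by 1.05 on the log2 scale with 0 copies. Which 3′ UTRs these cells use was not measured, and the part of the match in the falls was not tested.

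**Figure D4:**
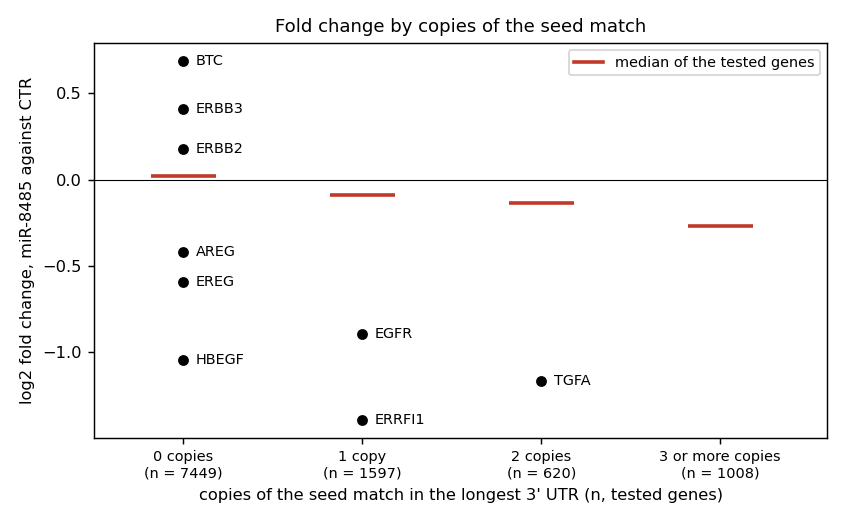
Log2 fold change of the 9 genes (black points) by the number of copies of TGTGTGT in the longest 3′ UTR, with the median of all tested genes of that number (red lines) and their n under the axis. The medians go from 0.02 at 0 copies to -0.27 at 3 or more, and EGFR, ERRFI1 and TGFA, the genes with copies, lie below them, as do AREG, EREG and HBEGF with 0 copies.

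The pentamer ATTTA, the core of AU-rich elements through which short-lived mRNAs are marked for decay, was also counted in the longest 3′ UTRs. EREG held 20 copies, TGFA 13, BTC 12, EGFR 9, HBEGF 5 and AREG 4 within its 265 bases. ERBB3 held 2 and ERBB2 held 0, while ERRFI1 held 0 in the longest and 5 in the canonical 3′ UTR. Of the 10674 tested genes with an annotated 3′ UTR, 74.0% held at least 1 copy, 39.8% at least 4 and 33.8% at least 5, and the median was 2. The median 3′ UTR length of these genes was 1458 bases, against 3941 for EREG and 3575 for TGFA. Copies thus occurred both in ligands that fell and in BTC, which rose.

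Other receptors and ligands of the family were barely expressed. ERBB4, EGF, EPGN, NRG1, NRG2, NRG3 and NRG4 were all below 1 FPKM on average. NRG3 was listed at 0 in all libraries, ERBB4 had at most 5 fragments, EGF at most 7 and EPGN at most 9 in a library. NRG4 measured 0.430, 0.549 and 0.483 FPKM in CTR and 0.221, 0.253 and 0.386 FPKM in miR-8485, and NRG2 measured 0.233, 0.257 and 0.208 against 0.308, 0.367 and 0.395 FPKM. In the limma fit of all 31768 genes above 0, neither passed the threshold (adjusted p = 0.224 for NRG4 and 0.367 for NRG2), although the groups did not overlap for either gene. NRG4 passed it with voom when the filter was 10 fragments in all, a limma fit with a log2 fold change of -0.79 and an adjusted p of 0.0346. NRG1 had 11 to 35 fragments in a library and no call either.

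Further genes of the pathway were grouped in 4 lists by step. These lists, like the members, were chosen with earlier results of these data known, so their counts are descriptive only. Of 54 tested genes in these lists, 36 fell, 3 rose and 15 did not pass the threshold, with a median log2 fold change of -0.39. Of all tested genes, 30.5% fell and 29.1% rose. Among 7 tested genes of ligand release, 4 fell and 0 rose. TIMP3, an inhibitor of the ligand-releasing proteases, fell most, from a mean of 2.25 FPKM to 0.542 FPKM (SD 0.504 and 0.103, n = 3 each), with a log2 fold change of -1.86, and -1.07 with a pseudocount of 1. The proteases ADAM9 and ADAM17, of which ADAM17 is known as the main sheddase of AREG, EREG, TGFA and HBEGF, had log2 fold changes of -0.66 and -0.48 (adjusted p = 9.2e-05 and 0.0019 in limma). ADAM17 measured 3.44, 3.38 and 3.91 FPKM in CTR and 2.44, 2.50 and 2.63 FPKM in miR-8485.

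Among 14 tested adaptors and first effectors, 9 fell and 0 rose, where 30.5% of all tested genes fell and 29.1% rose. NCK2, an adaptor that links receptors to the actin cytoskeleton, fell most, with 13.8, 14.4 and 15.3 FPKM in CTR and 2.40, 2.31 and 2.44 FPKM in miR-8485. In limma, NCK2 had a log2 difference of -2.55 ± 0.06 (standard error) and an adjusted p of 7.3e-07, while its close relative NCK1 was not past the threshold. CRKL, an adaptor, and PIK3CB, a catalytic subunit of PI3 kinase, had log2 fold changes of -0.90 and -0.74.

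Among 18 tested genes of receptor attenuation and trafficking, 9 fell, 2 rose and 7 did not pass, where 30.5% of all tested genes fell and 29.1% rose. CBL, the ubiquitin ligase that marks EGFR for degradation, had mean levels of 5.59 FPKM in CTR and 2.94 FPKM in miR-8485 (SD 0.698 and 0.186, n = 3 each). Its log2 difference was -0.90 at an adjusted p of 2.5e-04 in limma, and its 3′ UTR held 11 copies of TGTGTGT. PTPRJ, a receptor phosphatase, and STAM2, a sorting protein of endosomes, had log2 fold changes of -0.75 and -0.73. The 2 genes that rose, named after their values were seen, were RNF41 with 0.51 and EPN1 with 0.48. RNF41, also called NRDP1, is a ubiquitin ligase known for degrading ERBB3, which rose as well, and EPN1 encodes an endocytic adaptor. Like CBL, EPN1 held 11 copies of TGTGTGT in its longest 3′ UTR. The number of genes that fell in this list moved with the settings. It was 5 of 18 without CTR replicate 3 and without miR-8485 replicate 1, and 5 of 19 with no filter. It was 6 of 18 without CTR replicate 2 and with the length trend removed, and 13 of 18 after rescaling to TPM. Under the filter of 5 FPKM, 5 of 9 tested genes fell and 3 rose.

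The genes that the ERK pathway is known to induce were the list with the lowest median. Of 15 tested, 14 fell and 1 rose, where 30.5% of all tested genes fell and 29.1% rose. The median log2 fold change of the list was -0.81. SPRY4, a feedback inhibitor of RAS signaling, had a log2 fold change of -2.11, EGR1, an immediate early transcription factor, -1.47, and DUSP6, the ERK phosphatase, -1.42 (adjusted p = 2.5e-06, 4.3e-06 and 2.2e-06 in limma). DUSP6 measured 47.98, 50.03 and 50.9 FPKM in CTR and 17.7, 18.5 and 19.2 FPKM in miR-8485. MYC, named after its value was seen, was the gene that rose, with 0.27 (adjusted p = 0.0070 in limma), a call lost with quantile normalization (0.22, adjusted p = 0.0512). Over the alternatives, 12 to 14 genes of this list fell, with 12 of 13 tested under the filter of 5 FPKM.

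**Figure D5:**
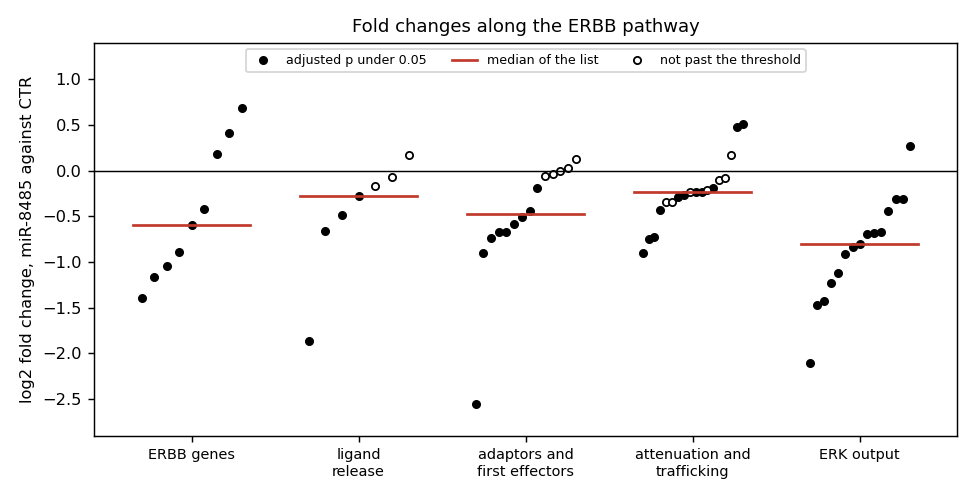
Log2 fold changes of the 9 ERBB genes and of the tested genes of the 4 further lists, with filled points for an adjusted p under 0.05 in limma, open points for genes that did not pass, and a red line at each median. Most points lie below 0 in every column, the ERK output genes have the lowest median at -0.81, and NCK2 at -2.55 is the lowest point.

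Of the 54 tested genes in these lists, 25, or 46.3%, held at least 1 copy of TGTGTGT in the longest 3′ UTR. Of these 25 genes, 19 fell, with a median log2 fold change of -0.44, where 44.1% of all tested genes with at least 1 copy fell, with a median of -0.15. Of the 29 without a copy, 17 fell, with a median of -0.24, where 29.1% of all tested genes without a copy fell, with a median of 0.02. Of the 3 genes that rose, 1 held a copy. SPRY4, EGR1 and NCK2 held 0 copies, and DUSP6 held 5. The part of the match in these falls was not tested.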

How the data were processed

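RNA-seq of HCT116 cells was analysed in 3 CTR and 3 miR-8485 libraries, grouped by sample title. Per the labels and the study's methods, the authors prepared libraries with a VAHTS kit, used fastp for trimming and HISAT2 (2.0.5) for mapping to hg38, and counted fragments with featureCounts. The values deposited by the authors were FPKM, and the main fit used them without further scaling between libraries. FPKM is relative to the library, so a change in total RNA per cell is not visible. 0 columns lacked a sample. Replicates were independent per the study's methods, and their chi-square per gene was 2.68 to 9.60 within and 54.4 to 62.4 between groups.

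Differences were tested two-sided with limma 3.58.1 under R 4.3.3. The model used a variance trend and log2(FPKM + 0.1), a scale that understates changes of low genes, for genes with a mean of at least 1 FPKM. Genes below this mean came from a fit of all genes above 0. The model was also run on simulated data in which few genes changed, so that run does not cover calls as common as those here. Fragments behind each FPKM were recovered for voom. Alternatives were pseudocounts of 1 and 0.01, no filter, a mean of at least 5 FPKM, TPM, median-of-ratios, quantile and length-trend scaling, no variance trend, a replicate block, voom and each library left out. 3′ UTRs came from GENCODE release 44, whose gene ends differ slightly from those deposited on the same build, and promoters from RefSeq. The sequence of the mimic is not printed here. Python 3.11.15 and pandas 2.3.3 were used.

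The members and lists were chosen with earlier results of these data known. Named were all 9 members, the other receptors and ligands, the genes most like the member that changed most and, per further list, up to 3 called genes with the largest fold change and separated groups.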

Additional observations from a re-analysis of the deposited data

How the results depend on the processing

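Of 159 alternative values of the 9 fold changes, 154 kept their direction and their side of the threshold, 0 changed direction and 5 lost the call, all of ERBB2. The log2 fold change of ERBB2 was 0.18 without a filter (adjusted p = 0.0616 in limma) and 0.0633 (adjusted p = 0.406) after rescaling to TPM, and 0.13 to 0.22 with each library left out. ERBB3, HBEGF and BTC had no value under the filter of 5 FPKM, which lowered the genes called to 2303 higher and 2417 lower by testing only 6878 genes. The pathway genes that rose numbered 3 to 5 with each library left out, 5 without miR-8485 replicate 2. Over all alternatives, ligand release genes that fell numbered 2 to 6, with 6 of 7 without CTR replicate 1 and 2 of 4 under the filter of 5 FPKM. Adaptors that fell numbered 6 to 10, with 6 of 9 under the filter of 5 FPKM and 10 of 14 after rescaling to TPM. Voom on the recovered fragments called 3920 genes as higher and 3895 as lower. Correlations between the deviations of same-numbered libraries were -0.064 to 0.067, and those of other-numbered libraries -0.094 to 0.061. No shared replicate effect was thus seen, but these values cannot tell whether same-numbered samples were handled together. A replicate block gave 3634 higher and 3754 lower genes and changed no call among the 9 members. The copies of TGTGTGT were the same in the canonical 3′ UTR for all 9. With 48 to 78 fragments per CTR library, the depth limited BTC most.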
